A study of Rattus norvegicus with 138 samples.

Results

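Transcripts of 6 metabotropic glutamate receptors, Grm2 (ENSRNOG00000013171), Grm3 (ENSRNOG00000005519), Grm4 (ENSRNOG00000000487), Grm5 (ENSRNOG00000016429), Grm7 (ENSRNOG00000005662) and Grm8 (ENSRNOG00000021468), were followed in 3 regions of the rat brainstem. They were taken by gene symbol, and they are 6 of the 32883 genes listed in each region's count table. All 6 passed the filter on low expression in all 3, which were the nucleus tractus solitarii (NTS) and the caudal (CVLM) and rostral (RVLM) ventrolateral medulla. The libraries came from tissue punches of 46 female rats, each of which gave 1 library per region. Of these, 28 were spontaneously hypertensive rats (SHRs, SHR/NHsd), an inbred strain that develops high blood pressure as it matures, and 18 were normotensive Wistar-Kyoto (WKY, WKY/NHsd) control rats. Ages were 8 wk (5 SHRs and 5 WKY rats), 10 wk (5 and 4), 12 wk (6 and 3), 16 wk (6 and 3) and 24 wk (6 and 3). No rat was treated, so strain and age are the compared conditions, and strain stands for every genetic difference between the 2 colonies and not for blood pressure alone.

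Metabotropic glutamate receptors are G protein-coupled receptors that tune synapses rather than carry the fast excitatory current. Grm5 encodes a group I receptor, which acts through Gq and phospholipase C and sits mainly on the postsynaptic side. Grm2 and Grm3 encode group II receptors and Grm4, Grm7 and Grm8 group III receptors, which act through Gi/o proteins to lower adenylyl cyclase activity and commonly limit transmitter release from nerve terminals; Grm3 is also made by astrocytes. Glutamate is the transmitter of the baroreceptor afferents that end in the NTS, and it drives the inhibitory neurons of the CVLM and the sympathetic premotor neurons of the RVLM.

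The libraries held 5904570 to 17889406 counts (median 10143018). Levels are given as CPM, counts scaled to the size of the library, which allow a gene to be compared between samples but not genes with each other, since transcript lengths were not used. Of 5 astrocyte markers, 6 neuron markers and 5 oligodendrocyte markers, all were detected and tested in all 3 regions. Among region markers, Chat, which makes acetylcholine, was lower in CVLM than in RVLM (-3.74 ± 0.11 log2 units, SE), whereas Pnmt, the last enzyme of adrenaline synthesis and a defining gene of the C1 neurons known from the RVLM, was 1.13 ± 0.19 log2 units (SE) higher in CVLM than in RVLM, against what the region labels would give. In total 7 libraries stood apart, all from WKY rats. In NTS these were 4 libraries with 252.4 to 4700 CPM of the choroid plexus gene Ttr, against at most 93.8 CPM in any other NTS library. In CVLM, 1 library had 194.9 CPM of Ttr and 1 had 114 CPM of the serotonin enzyme Tph2. In RVLM, the library of WKY replicate 3 at 8 wk had 43 counts of Grm7, the fewest of any RVLM library. It was picked by a receptor's own value and not by an outside marker, and libraries with high receptor values were not set apart. Strain differences that passed are given with and without these libraries. For other results such values are given only in part. The tests of strain by age and of age within a strain were not rerun without them.

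RefSeq promoter windows of assembly GRCr8 (250 bases before to 50 after the start of the gene) were at hand for 3 of the 6 receptors, and these are shown as a description. No link between their sequence and the levels was tested. Each is written 5′ to 3′ on the gene's strand. Capitals mark GC boxes (GGGCGG on either strand), which were found in 33.1% of 33469 promoter windows of this length. Searched on both strands as well were TGACGTCA, the cyclic AMP response element (1.83% of windows), CCAAT (37.5%) and TATAAA (14.2%), with no overlap between marked motifs.
Grm7, chr4:145286476-145286775, plus strand: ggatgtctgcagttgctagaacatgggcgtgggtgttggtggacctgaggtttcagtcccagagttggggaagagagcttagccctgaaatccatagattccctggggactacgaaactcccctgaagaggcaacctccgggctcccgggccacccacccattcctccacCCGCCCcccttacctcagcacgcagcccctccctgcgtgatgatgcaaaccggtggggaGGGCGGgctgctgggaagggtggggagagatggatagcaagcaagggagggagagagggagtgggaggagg
Grm8, chr4:57687457-57687756, minus strand: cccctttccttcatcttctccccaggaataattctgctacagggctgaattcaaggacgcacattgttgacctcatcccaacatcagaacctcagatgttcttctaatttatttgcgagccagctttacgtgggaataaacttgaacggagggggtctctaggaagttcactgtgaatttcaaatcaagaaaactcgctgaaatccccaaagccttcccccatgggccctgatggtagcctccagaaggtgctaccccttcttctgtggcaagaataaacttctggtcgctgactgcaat
Grm5, chr1:150733503-150733802, plus strand: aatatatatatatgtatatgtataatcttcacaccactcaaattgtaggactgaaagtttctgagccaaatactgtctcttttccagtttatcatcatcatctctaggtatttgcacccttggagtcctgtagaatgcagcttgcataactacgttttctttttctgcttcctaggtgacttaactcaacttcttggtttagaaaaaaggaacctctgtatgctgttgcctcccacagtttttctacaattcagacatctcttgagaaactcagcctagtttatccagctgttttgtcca
The Grm7 window held 2 GC boxes and was 62% G and C, and none of the 4 motifs was found in the windows of Grm8 (47.3% G and C) and Grm5 (37.3%). The median over all windows was 51.7%.

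The 6 receptors were distributed unevenly over the 3 regions. Grm8 was highest in CVLM, Grm2 was lowest in RVLM, Grm5 was highest in NTS, and Grm3, Grm4 and Grm7 differed less. In a joint fit of the libraries of all 46 rats that paired the regions of each rat, 6 of 6 receptors differed between NTS and RVLM (72.3% of all 13116 genes tested), 3 of 6 between NTS and CVLM (65.4% of genes) and 5 of 6 between CVLM and RVLM (53.8% of genes). Since most genes differed between the regions, these counts are not out of the ordinary, and the receptors are set apart from each other by the sizes of their differences. In bulk tissue, fewer cells of a type and less transcript per cell cannot be told apart.

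Grm5, the group I receptor, had a level of 9.69 ± 3.31 CPM (SD, n = 46) in NTS, 6.31 ± 2.20 CPM in CVLM and 5.59 ± 2.12 CPM in RVLM. NTS was higher than RVLM in 43 of 46 rats, by 0.82 ± 0.083 log2 units (SE, adjusted p = 1.322e-14), and higher than CVLM in 42 of 46 rats, by 0.62 ± 0.082 log2 units (adjusted p = 4.745e-10). CVLM and RVLM lay close together. Their difference of 0.21 ± 0.085 log2 units passed the test (adjusted p = 0.0345) but not with limma voom (adjusted p = 0.0724), without a filter on low counts (0.0593), without pairing by rat (0.106) or without the libraries that stood apart (0.0732).

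Grm2, a group II receptor found mainly on nerve terminals, had the largest difference of the 6 between regions. Its level was 7.04 ± 1.45 CPM in NTS, 8.22 ± 3.27 CPM in CVLM and 1.46 ± 0.881 CPM in RVLM (SD, n = 46 each). NTS was higher than RVLM in 46 of 46 rats, by 2.49 ± 0.12 log2 units (adjusted p = 2.696e-32), or 4.83-fold between the means, and CVLM was higher than RVLM in 46 of 46 rats, by 2.66 ± 0.12 log2 units (adjusted p = 8.898e-34). The RVLM values rest on few reads, with 1 to 42 counts per library and a median of 14. NTS and CVLM were not separated (-0.18 log2 units, 95% interval -0.37 to 0.02, adjusted p = 0.116), and within CVLM the rats ranged from 3.31 to 17.3 CPM.

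Grm3, the other group II receptor, differed between NTS and RVLM in the reverse direction and by much less. It had 92.8 ± 18.5 CPM in NTS, 105 ± 13.6 CPM in CVLM and 107 ± 19.2 CPM in RVLM (SD, n = 46 each). NTS was higher than RVLM in only 9 of 46 rats and higher than CVLM in 10 of 46, with log2 differences of -0.23 ± 0.038 (adjusted p = 1.197e-07) and -0.21 ± 0.038 (adjusted p = 1.9e-06), while CVLM and RVLM were not separated (-0.02, 95% interval -0.10 to 0.05). The summed level of the 5 astrocyte markers had a median of 1740 CPM in NTS and 1230 CPM in RVLM of SHRs. In WKY rats the medians were 1750 and 1120 CPM. The single markers were split. Gfap (1.27 log2 units), Gja1 (0.65) and Aqp4 (0.43) were higher in NTS than in RVLM, and Aldh1l1 (-0.24) and Fgfr3 (-0.41) were lower.

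Grm8 ordered the regions most sharply among the group III receptors. Its level was 39.6 ± 8.71 CPM in CVLM, 17.5 ± 2.29 CPM in NTS and 12.0 ± 2.49 CPM in RVLM (SD, n = 46 each). CVLM exceeded RVLM in 46 of 46 rats, by 1.72 ± 0.046 log2 units (adjusted p = 5.017e-48, 3.29-fold between the means). The ranges did not overlap, since the lowest CVLM library had 26.0 CPM and the highest RVLM library 19.1 CPM. NTS was higher than CVLM in 0 of 46 rats, with a log2 difference of -1.15 ± 0.045 (adjusted p = 3.476e-37), and higher than RVLM in 45 of 46, by 0.57 ± 0.046 log2 units (adjusted p = 6.59e-19).

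Grm7, known for its place at the active zone of nerve terminals, was the most even of the 6, at 23.1 ± 3.76 CPM in NTS, 23.0 ± 4.78 CPM in CVLM and 20.3 ± 3.96 CPM in RVLM (SD, n = 46 each). NTS was higher than RVLM by 0.20 ± 0.052 log2 units (adjusted p = 0.000418, 31 of 46 rats) and CVLM higher than RVLM by 0.16 ± 0.053 (adjusted p = 0.00623, 30 of 46 rats). Grm4 had the lowest counts outside the Grm2 values in RVLM, with a median of 25.5 to 36.5 counts per library in the 3 regions. It was highest in RVLM, at 3.62 ± 1.11 CPM against 2.64 ± 1.1 CPM in NTS and 2.93 ± 0.953 CPM in CVLM. The log2 difference of NTS from RVLM was -0.51 ± 0.099 (adjusted p = 3.894e-06), and that of CVLM from RVLM was -0.36 ± 0.099 (adjusted p = 0.00121). NTS and CVLM were not separated for Grm7 (95% interval of the log2 difference -0.06 to 0.14) or Grm4 (-0.35 to 0.05).

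**Figure D1:**
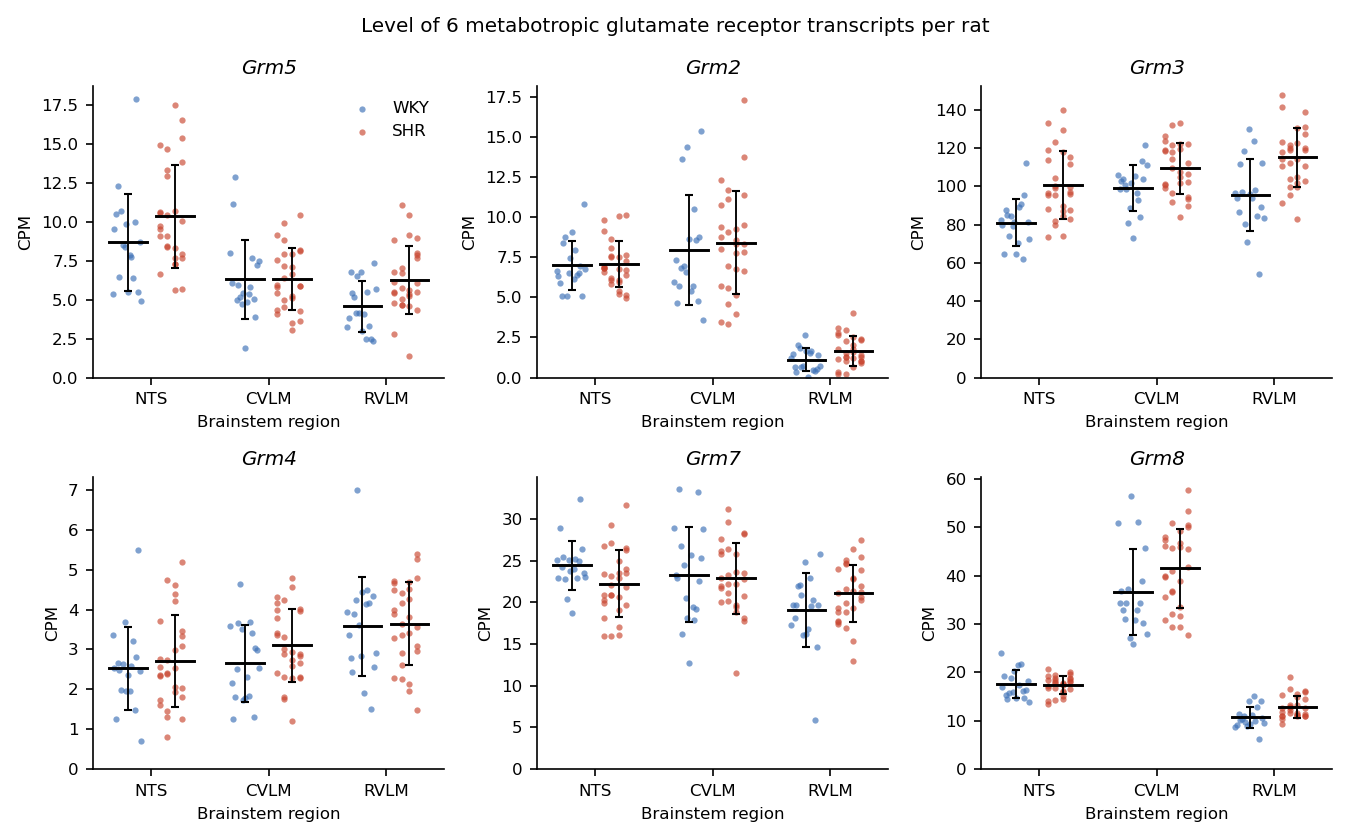
CPM of each receptor (vertical axes, linear from 0) in every rat by region, with WKY rats in blue (n = 18) and SHRs in red (n = 28); points are libraries, and bars give the mean with SD. Grm8 separates CVLM (26.0 to 57.8 CPM) from RVLM (6.28 to 19.1 CPM), Grm2 is at most 3.99 CPM in RVLM, and the strains overlap in every panel.

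The strains were then compared within each region, as the mean of the SHR minus WKY differences at the 5 ages. Grm3 was higher in SHRs in NTS and RVLM, Grm8 was higher in SHRs in RVLM, and no receptor was called lower. In NTS 1 of 6 receptors was called, beside 11.2% of 13793 genes (5.66% higher and 5.51% lower). In CVLM 0 of 6 were called, beside 12.3% of 13408 genes (5.28% higher and 7% lower), and in RVLM 2 of 6, beside 10.8% of 13411 genes (5.84% higher and 4.98% lower). In CVLM, edgeR gave 2 of 6 at an unadjusted p under 0.05, and DESeq2 called 0. The median log2 difference of the 6 receptors was 0.06 in NTS, 0.10 in CVLM and 0.24 in RVLM, beside 0.01, -0.003 and 0.009 over all genes tested.

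Grm3 had the strain difference with the lowest adjusted p of the 6. In NTS its level ran from 62.2 to 112 CPM with a median of 81.3 CPM in WKY rats, and from 73.2 to 140 CPM with a median of 96.8 CPM in SHRs. The groups overlapped, with 25 of 28 SHRs above the WKY median, and the SHR mean was the higher one at 5 of 5 ages. The difference was 0.31 ± 0.060 log2 units (95% interval 0.19 to 0.43, adjusted p = 0.000155). It was 0.31 without the NTS libraries that stood apart (adjusted p = 0.00222), 0.29 to 0.34 with any 1 rat left out, and called in each of these fits. In RVLM, Grm3 ran from 53.9 to 130 CPM (median 94.9 CPM) in WKY rats. In SHRs it ran from 83.0 to 148 CPM (median 116 CPM), with 26 of 28 SHRs above the WKY median. The WKY medians pool all ages, and the strains differed in how many rats each age had. At 12 wk the RVLM means were level, at 110 ± 17.8 CPM in SHRs and 109 ± 11.6 CPM in WKY rats. The RVLM difference over the ages was 0.24 ± 0.066 log2 units (95% interval 0.10 to 0.37, adjusted p = 0.0115). It held without the low WKY library (0.21, adjusted p = 0.00856). In CVLM the WKY range of 72.9 to 122 CPM (median 101 CPM) lay largely within the SHR range of 84.1 to 133 CPM (median 109 CPM), and the difference of 0.13 ± 0.049 did not pass (95% interval 0.03 to 0.23, adjusted p = 0.0825); without the 2 CVLM libraries that stood apart, both from WKY rats, it was 0.17 and passed (adjusted p = 0.0123).

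Since Grm3 is made by astrocytes as well as neurons, the astrocyte markers are given beside it. Of 5 markers, 1 passed in NTS (Fgfr3, 0.39 ± 0.11 log2 units higher in SHRs), 1 in RVLM (Aldh1l1, 0.36 ± 0.081 higher) and 0 in CVLM, with list medians of 0.13, 0.21 and 0.14. None of the 5 was absent. Their summed level ran from 1200 to 2450 CPM in WKY rats and from 1210 to 2280 CPM in SHRs in NTS, and from 551 to 1740 CPM and 617 to 2050 CPM in RVLM. None of the 6 neuron markers passed in any region. Of 5 oligodendrocyte markers, 1, 3 and 2 were lower in SHRs in NTS, CVLM and RVLM. The largest difference was that of Mobp, a myelin gene (-0.72 ± 0.085, -0.99 ± 0.054 and -0.94 ± 0.064 log2 units). Mobp stood apart from its list, whose medians were 0.11, -0.14 and -0.09. The part of cell composition in the Grm3 and Grm8 differences was not tested.

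Grm8 in RVLM ran from 6.28 to 15 CPM with a median of 10.3 CPM in WKY rats and from 9.37 to 19.1 CPM with a median of 12.4 CPM in SHRs. It was above the WKY median in 26 of 28 SHRs. That median pools all ages, and the strains differed in how many rats each age had. The SHR mean was the higher one at 4 ages and the lower one at 1. The latter was 24 wk, with 12.7 ± 1.57 CPM in SHRs and 13.2 ± 2.4 CPM in WKY rats (-0.035 ± 0.19 log2 units). Over the ages Grm8 was higher in SHRs by 0.25 ± 0.081 log2 units (95% interval 0.09 to 0.41, adjusted p = 0.0370). The call was near the threshold, as its adjusted p ran from 0.0134 to 0.0923 with 1 rat left out and it passed in 33 of 46 such fits; without the low WKY library it was 0.23 (adjusted p = 0.0455). In CVLM, where Grm8 was most abundant, the WKY median was 34.3 CPM and the SHR median 41.4 CPM. The difference of 0.18 ± 0.086 log2 units did not pass (adjusted p = 0.211). Without the 2 CVLM libraries that stood apart it was 0.23 and did not pass either (adjusted p = 0.0848). In NTS the difference was 0.009 ± 0.060, with a 95% interval of -0.11 to 0.13.

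Grm5 in RVLM had the widest strain difference after Grm2, without passing. WKY rats had 2.36 to 7.36 CPM (median 4.14 CPM) and SHRs 1.36 to 11 CPM (median 5.66 CPM). The difference of 0.46 ± 0.16 log2 units had a 95% interval of 0.13 to 0.79 and an adjusted p of 0.0626, and DESeq2 called it (adjusted p = 0.0376). In NTS the difference was 0.31 ± 0.14 (adjusted p = 0.165), and in CVLM 0.06 ± 0.15 (adjusted p = 0.873). Grm2 in RVLM, at a median of 0.990 CPM in WKY rats and 1.49 CPM in SHRs, differed by 0.49 ± 0.23 log2 units (adjusted p = 0.201). Grm7 in NTS, at a median of 24.2 CPM in WKY rats and 21.9 CPM in SHRs, differed by -0.12 ± 0.066 (adjusted p = 0.293). Grm4 had intervals that spanned 0 in all regions, the widest from -0.23 to 0.46 in NTS.

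**Figure D2:**
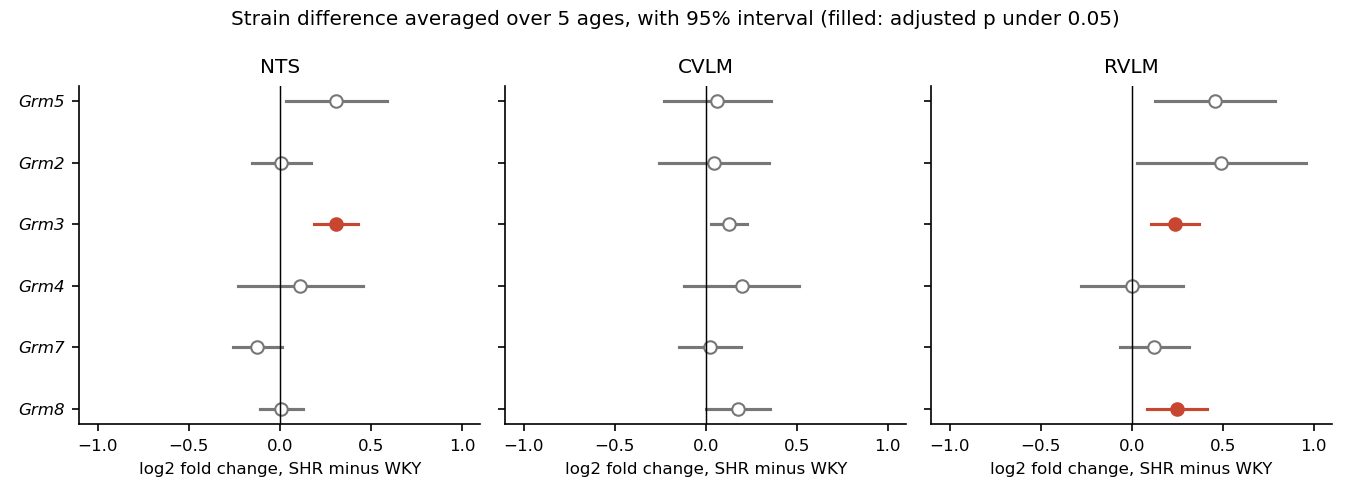
Log2 fold change of SHRs minus WKY rats, averaged over the 5 ages (horizontal axis), for each receptor in each region; bars are 95% intervals, and filled red symbols passed at an adjusted p under 0.05. Only Grm3 in NTS and RVLM and Grm8 in RVLM are filled, and the CVLM estimates range from 0.02 to 0.20.

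Whether a strain difference depended on the region was tested directly, and no receptor passed. Over 18 tests in the joint fit the lowest adjusted p was 0.195, with 5 of 18 at an unadjusted p under 0.05, and limma voom called 0. The background was 1.75% of genes for NTS against RVLM, 0.351% for NTS against CVLM and 0.282% for CVLM against RVLM. The lowest values were for NTS against RVLM, where the strain difference of Grm8 had an interaction of -0.24 ± 0.092 (adjusted p = 0.195) and that of Grm7 one of -0.26 ± 0.10 (adjusted p = 0.23). The calls in NTS and RVLM and their absence in CVLM are therefore not shown to differ between regions.

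At single ages, 4 of 90 tests passed, 3 of 30 in NTS (3.5% of tests over all genes), 0 of 30 in CVLM (4.57%) and 1 of 30 in RVLM (3.53%). In CVLM, edgeR gave 2 of 30 at an unadjusted p under 0.05, and DESeq2 called 0. The calls fell at 8 wk, an age at which SHRs are held to be prehypertensive, except one at 12 wk. From 8 to 24 wk the share of all genes called was 5.79%, 4.44%, 3.1%, 1.73% and 2.46% in NTS, 7.64%, 3.18%, 2.62%, 2.27% and 7.13% in CVLM, and 9.78%, 2.3%, 1.7%, 1.65% and 2.24% in RVLM. At an adjusted p of at most 0.01 with a 2-fold change no receptor passed at any age, beside 1.09%, 1.13% and 1.13% of the tests over all genes in NTS, CVLM and RVLM. All SHRs of an age lay above all WKY rats in 1, 2 and 1 of 30 comparisons in NTS, CVLM and RVLM, and below them in 1, 0 and 0. The share of all genes with such a separation was not counted.

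In NTS at 8 wk, Grm3 was at 70.4, 79.4, 82.2, 87.4 and 95.37 CPM in WKY rats and at 95.43, 111.7, 113.8, 129.6 and 132.8 CPM in SHRs. All 5 SHRs lay above all 5 WKY rats, although the closest pair was almost level. The difference was 0.47 ± 0.12 log2 units (adjusted p = 0.0163, 5.79% of genes called). At 12 wk the WKY rats had 64.4, 73.9 and 81.5 CPM and the SHRs 74.0, 95.4, 95.9, 115.3, 117.7 and 123 CPM, so that 5 of 6 SHRs lay above the WKY rats, with a difference of 0.53 ± 0.14 (adjusted p = 0.0228, 3.1% of genes called). Both calls lost significance without the 4 libraries rich in Ttr, which belong to WKY rats of these ages, at values of 0.36 (adjusted p = 0.13) and 0.63 (adjusted p = 0.284, with a single WKY rat left at 12 wk). The 12 wk call was also lost when any 1 of the 3 WKY rats (adjusted p from 0.0616 to 0.147) or SHR replicate 2, 4 or 5 (0.0522 to 0.0636) of that age was left out. At 16 and 24 wk the group means were 95.9 ± 7.03 CPM in SHRs against 83.9 ± 5.86 CPM in WKY rats and 104 ± 21.9 against 95.4 ± 14.5 CPM, and neither passed. The 5 astrocyte markers in NTS had median differences of 0.013, -0.062, 0.009, 0.15 and 0.154 from 8 to 24 wk. Of these markers, 1 of 5 was called higher at 24 wk and 0 of 5 at the other ages. The Grm3 differences were 0.47, 0.25, 0.53, 0.185 and 0.13, and the part of the markers in these was not tested.

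In RVLM at 8 wk, Grm3 was at 53.9, 70.6, 93.6, 96.6 and 111.8 CPM in WKY rats and at 110.6, 117.8, 119, 121.7 and 130.7 CPM in SHRs. Only the highest WKY rat reached the SHR range. The difference of 0.47 ± 0.14 (adjusted p = 0.0238, 9.78% of genes called) fell to 0.34 and did not pass without the lowest WKY library (adjusted p = 0.109), which also had the lowest Grm7 level. It did not pass either without SHR replicate 2 (0.46, adjusted p = 0.0501) or WKY replicate 2 (0.41, adjusted p = 0.056) at that age. The 5 astrocyte markers in RVLM had median differences of 0.35, 0.24, -0.21, 0.09 and 0.24 from 8 to 24 wk, with 1 of 5 called higher at 8 wk and 0 of 5 at the other ages, beside Grm3 differences of 0.47, 0.30, 0.01, 0.14 and 0.28, and their part in these was not tested. At 10 wk all 5 SHRs (91.4 to 120 CPM) lay above all 4 WKY rats (80.4 to 86.4 CPM), yet the difference of 0.30 ± 0.14 did not pass (adjusted p = 0.619, 2.3% of genes called). In CVLM at 8 wk the SHRs (114 to 122 CPM) were again all above the WKY rats (88.6 to 113 CPM), by 0.18 ± 0.10 (adjusted p = 0.284, 7.64% of genes called).

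**Figure D3:**
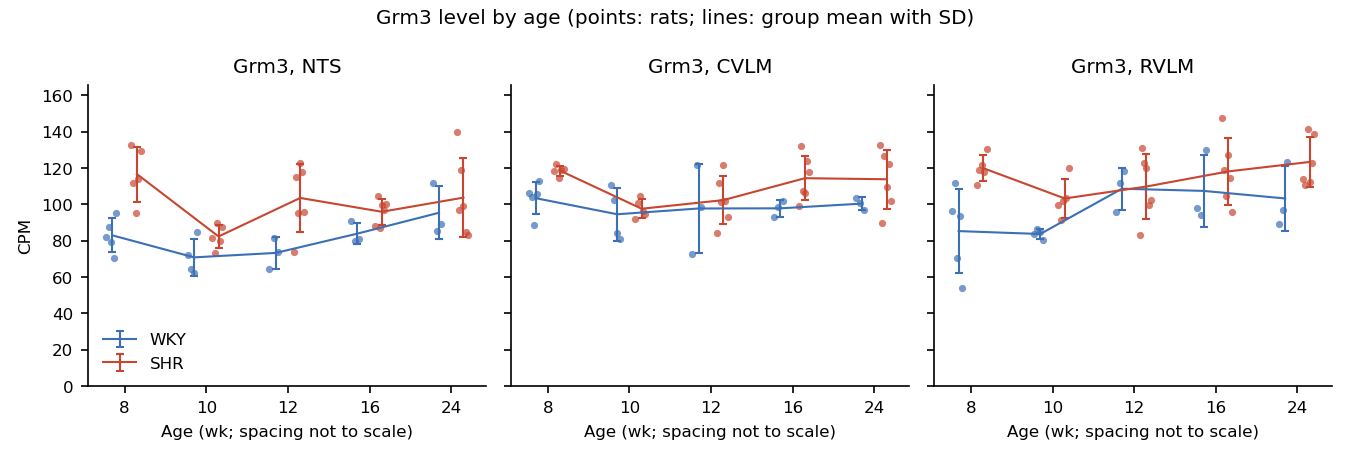
Grm3 level in CPM (vertical axis, from 0) at each age in wk (horizontal axis, not to scale) in the 3 regions; points are rats, and lines join group means with SD, WKY rats in blue and SHRs in red. The SHR mean lies above the WKY mean at 5 of 5 ages in every region, with the gap in NTS widest at 8 wk (117 against 83.0 CPM) and 12 wk (104 against 73.3 CPM).

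Grm7 was the single receptor called lower in SHRs at any age. In NTS at 8 wk the WKY rats had 24.0, 24.3, 25.0, 25.1 and 32.4 CPM and the SHRs 15.9, 15.9, 17.0, 20.9 and 23.95 CPM. All 5 SHRs lay below all 5 WKY rats, with a difference of -0.51 ± 0.14 log2 units (adjusted p = 0.0202). It remained without the libraries rich in Ttr (-0.59, adjusted p = 0.0303) but not without WKY replicate 3, the highest (-0.41, adjusted p = 0.116), nor without SHR replicate 2, 3 or 5 (adjusted p from 0.0755 to 0.0865), nor without a filter on low counts (adjusted p = 0.052), and it was -0.29 with the ending of the library names as a term (adjusted p = 0.415). In the same NTS comparison at 8 wk, the 3 motor neuron markers had a median of -0.92 with 1 of 3 called lower. The 4 noradrenergic and adrenergic neuron markers had a median of -0.76 with 1 of 4 called lower. The 6 neuron markers had a median of -0.04 with 0 of 6 called. Other lists lay on both sides of 0 there. Medians were -0.41 for Gq signalling genes, -0.31 for receptor scaffolds and partners (1 of 12 called lower) and -0.21 for Gi/o signalling genes. They were 0.26 for oligodendrocyte, 0.19 for oligodendrocyte precursor and 0.08 for microglia markers. The part of any of these lists in the Grm7 difference was not tested. From 10 to 16 wk the strain means in NTS differed by at most 0.04 log2 units, within their spread. At 24 wk Grm7 was at 22.4 ± 4.77 CPM in SHRs and 25.6 ± 0.653 CPM in WKY rats. Of the 6 SHRs, 5 lay below all 3 WKY rats and 1 above them. The difference of -0.19 ± 0.15 did not pass (adjusted p = 0.66).

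Grm2 in CVLM at 8 wk was at 4.79, 5.41, 5.73, 5.96 and 6.59 CPM in WKY rats and at 8.03, 9.28, 9.50, 11.7 and 12.3 CPM in SHRs. The groups did not overlap, at 1.78-fold between means and 0.82 ± 0.31 log2 units, but the fit across ages gave an adjusted p of 0.105 (7.64% of genes called). The spread at the other ages was wider, as at 12 wk, where SHRs ran from 3.94 to 17.3 CPM and WKY rats from 8.65 to 15.4 CPM. With 8 wk fitted alone the value was 0.83 and passed (adjusted p = 0.0199). It did not pass with the ending of the library names as a term (0.84, adjusted p = 0.349) or with only libraries whose names end in 1 (0.70). The 2 CVLM libraries whose age labels conflict belong to these 8 wk groups. In NTS at 12 wk Grm2 was at 8.74 to 10.8 CPM in WKY rats and 4.93 to 10.1 CPM in SHRs. The difference was -0.50 ± 0.18 (adjusted p = 0.168). WKY replicates 2 and 3 of that group were among the libraries rich in Ttr, and no value without them is given. Of the other receptors, Grm4 in NTS at 10 wk was nearest to a call, at 0.702 to 2.63 CPM in WKY rats and 0.810 to 4.75 CPM in SHRs, with 1.07 ± 0.37 log2 units (adjusted p = 0.0881) on 10 to 73 counts per library.

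**Figure D4:**
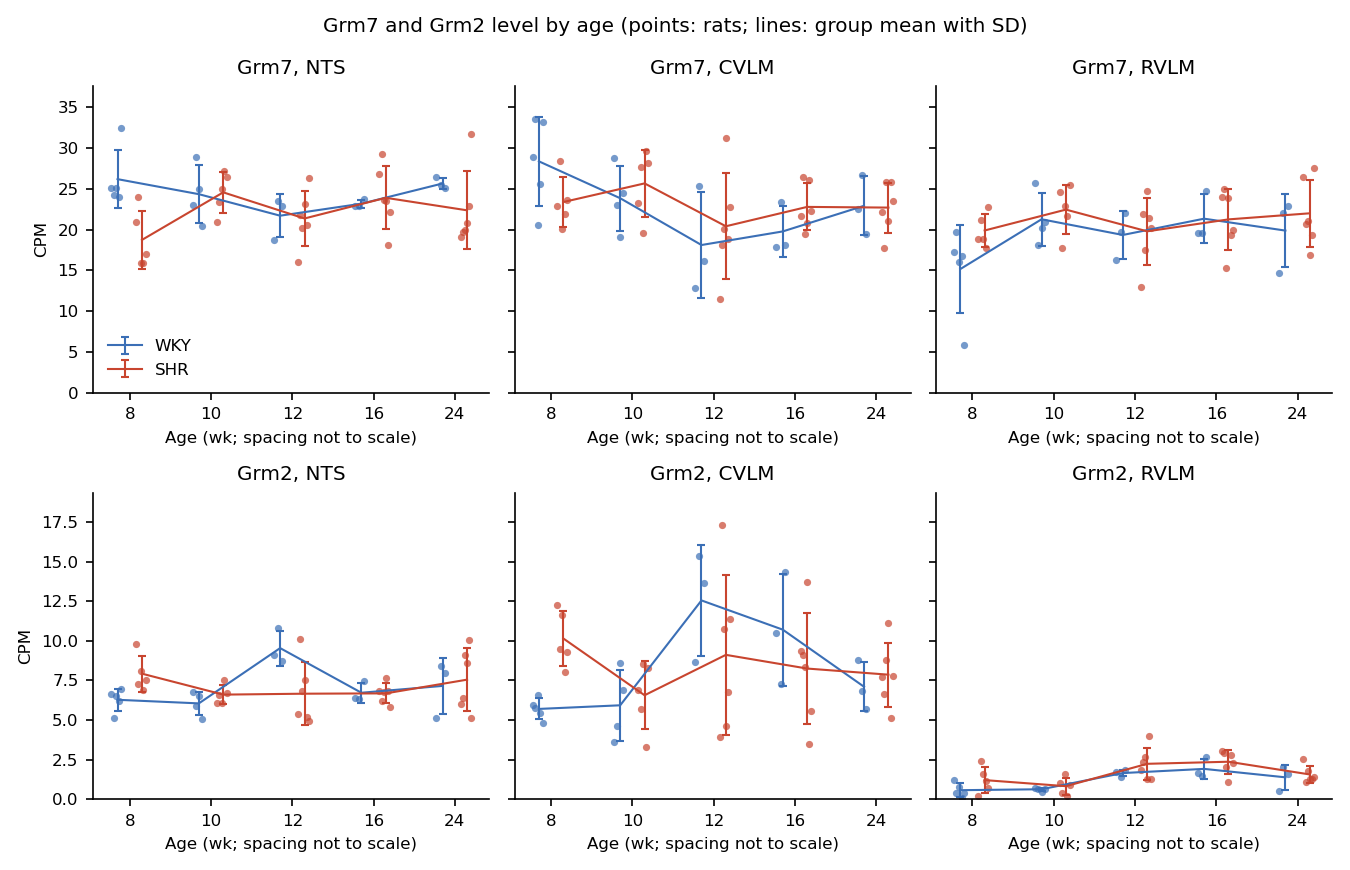
Grm7 (upper row) and Grm2 (lower row) level in CPM (vertical axes, from 0) at each age in wk (not to scale) in the 3 regions; points are rats, and lines join group means with SD, WKY rats in blue and SHRs in red. The strains separate for Grm7 in NTS and for Grm2 in CVLM at 8 wk only, and Grm2 is at most 3.99 CPM in RVLM.

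The test of strain by age found no receptor whose strain difference changed with age (0 of 18, edgeR, lowest adjusted p = 0.378 for Grm4 in NTS). There were 3 of 18 at an unadjusted p under 0.05, all in NTS, and DESeq2 called 0. Across all genes this test called 0.0145%, 0.0224% and 0.00746% in NTS, CVLM and RVLM. The single-age calls are therefore not shown to be particular to their ages.

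Within a strain, levels differed with age in 2 of 36 tests. Over all genes this test called 12.5%, 22.2% and 6.79% in NTS, CVLM and RVLM of WKY rats and 18.7%, 20% and 14.1% in those of SHRs. Grm3 in NTS of SHRs passed (adjusted p = 0.0475, 18.7% of genes called), with a mean of 117 ± 15.1 CPM at 8 wk, 82.3 ± 6.52 CPM at 10 wk, 104 ± 18.5 CPM at 12 wk, 95.9 ± 7.03 CPM at 16 wk and 104 ± 21.9 CPM at 24 wk. The 10 wk group was the lowest, and all 10 wk libraries share a name ending that most other libraries do not have. With the ending as a term the adjusted p was 0.697, and it was over the threshold in 23 of 46 fits with 1 rat left out. Grm2 in CVLM of WKY rats passed as well (adjusted p = 0.0347, 22.2% of genes called), with 5.70 ± 0.668, 5.93 ± 2.24, 12.6 ± 3.49, 10.7 ± 3.53 and 7.10 ± 1.55 CPM from 8 to 24 wk. Its 12 and 16 wk groups, of 3 rats each, were the high ones. The adjusted p was 0.341 with the name ending as a term and 0.0555 without the 2 CVLM libraries whose age labels conflict, and 8 of 46 fits with 1 rat left out did not pass (up to 0.0871, without WKY replicate 2 at 12 wk).

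The name endings also bear on the strain difference, because 3 of 5 WKY rats at 8 wk carry the ending of the 10 wk libraries. Among libraries with the other ending, Grm3 in NTS was 0.36 ± 0.077 log2 units higher in SHRs over 4 ages (adjusted p = 0.00193). In RVLM it was 0.23 ± 0.076 (adjusted p = 0.0705), and Grm8 in RVLM was 0.25 ± 0.10 (adjusted p = 0.208). Within the 10 wk libraries, the second ending, Grm3 was 0.25 ± 0.13 higher in NTS and 0.30 ± 0.14 higher in RVLM, and Grm8 in RVLM 0.38 ± 0.17 higher. None of these 3 passed. At 8 wk in NTS, where 2 WKY rats share the SHRs' ending, Grm3 was 0.54 higher (adjusted p = 0.14) and Grm7 differed by -0.41 (adjusted p = 0.245), and in RVLM Grm3 was 0.51 higher (adjusted p = 0.213). With the ending as a term in the fit of all libraries, Grm3 at 8 wk was 0.41 higher in NTS (adjusted p = 0.152) and 0.51 higher in RVLM (adjusted p = 0.0737).

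Genes that supply glutamate or act with these receptors were counted beside the 11.2%, 12.3% and 10.8% of all genes called in NTS, CVLM and RVLM, and in lists this small the counts do not stand apart from those shares. Of the 10 tested genes of glutamate supply and clearance, out of 12 listed, 1 passed in NTS and 0 in CVLM and RVLM. It was Slc1a1, a neuronal glutamate transporter, lower in SHRs at 58.1 ± 4.27 against 63.3 ± 6.32 CPM (-0.12 ± 0.040 log2 units, adjusted p = 0.033). The list medians were 0.02, 0.06 and -0.05 in NTS, CVLM and RVLM, close to those of all genes.

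Among receptor scaffolds and partners, 12, 10 and 11 of 12 genes were tested in NTS, CVLM and RVLM. Homer2, whose product tethers group I receptors at the synapse, was lower in SHRs in all 3 regions. It had 7.17 ± 3.68 CPM in WKY rats and 2.99 ± 1.72 CPM in SHRs in NTS (-1.13 ± 0.25 log2 units, adjusted p = 0.0012), 5.45 ± 2.49 against 2.22 ± 1.07 CPM in CVLM (-1.27 ± 0.22, adjusted p = 3.868e-05) and 5.65 ± 2.62 against 1.96 ± 1.19 CPM in RVLM (-1.43 ± 0.25, adjusted p = 2.626e-05). Higher in SHRs were Ncdn, the receptor partner norbin, in NTS (0.20 ± 0.065, adjusted p = 0.0446) and Grip1, a PDZ-domain scaffold, in RVLM (0.41 ± 0.12, adjusted p = 0.0259). The list thus gave 1 higher and 1 lower of 12 in NTS, 0 and 1 of 10 in CVLM, and 1 and 1 of 11 in RVLM, near the shares of all genes called, with medians of -0.03, 0.07 and 0.07.

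None of the 9 Gq signalling genes, the route of Grm5, passed in any region, a count that says little beside 10.8% to 12.3% of all genes. Of the 11 tested Gi/o signalling genes, the route of the other 5 receptors, Adcy5, an adenylyl cyclase inhibited by Gi, was lower in SHRs in NTS (-0.29 ± 0.088, adjusted p = 0.0215) and CVLM (-0.28 ± 0.060, adjusted p = 0.000634), and none passed in RVLM. The 8 genes of receptor desensitization gave 1 higher in each region, Rgs8, which speeds the shut-off of Gi/o proteins. Its level was 25.8 ± 3.38 CPM in WKY rats and 32.6 ± 7.26 CPM in SHRs in NTS (0.37 ± 0.074, adjusted p = 0.000237), and it differed by 0.27 ± 0.086 in CVLM (adjusted p = 0.0318) and 0.70 ± 0.16 in RVLM (adjusted p = 0.00154). Rgs2, which acts chiefly on Gq, was the 1 lower gene of this list, in RVLM (-0.27 ± 0.089, adjusted p = 0.0407). Medians of the Gq, Gi/o and desensitization lists lay between -0.05 and 0.08, beside medians over all genes tested between -0.003 and 0.01.

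Across the 30 group means of log2 CPM (3 regions, 2 strains and 5 ages), the genes most like each receptor were described by Pearson's r, without a test, since region sets most of the spread and the points share libraries. Grm2 was closest to LOC100912228 (r = 0.974), Bcl11a (0.97) and Plk2 (0.964), and Grm8 to Rasgrp1 (0.974), Wnt3 (0.957) and Cdk14 (0.956). These 2 receptors had the widest range over regions. Grm5 was closest to Sh3rf1 (0.923), Phf12 (0.916) and Fzd3 (0.914), and Grm3 to Btbd3 (0.885), Galnt6 (0.883) and Mt-nd5 (0.876). The values were lower for Grm4, closest to Kif3c (0.847), Ano10 (0.844) and Slc4a2 (0.824), and for Grm7, closest to Slc39a9 (0.801), Wdr37 (0.796) and Palm2 (0.778).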

How the data were processed

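RNA was sequenced from brainstem punches of 46 female rats, with 1 library per rat and region and the punches of both sides pooled. The values used are the authors' expected counts per gene, which they deposited as 1 table per region after paired-end alignment to rn6 with STAR and quantification with RSEM. Batch adjustment with ComBat_seq is named in the study's methods, and whether it had been applied to these tables is not given in the sources used here, nor is the strand setting of the counting. Of the values, 5.02% in NTS, 4.95% in CVLM and 4.88% in RVLM were not whole numbers.

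Expected counts were rounded to whole numbers, and genes whose regularized log2 value reached 3.5 in at least 1 library were kept. Each region was fitted with edgeR 4.0.16 (R 4.3.3, TMM factors, robust quasi-likelihood) over 10 groups of strain and age. Contrasts gave the strain difference at each age, its mean over the 5 ages, strain by age, and age within a strain. A joint fit of the 13116 genes kept in all 3 regions, with the rat as a block, compared regions. p-values were adjusted by Benjamini-Hochberg over all genes of a contrast, and calls were made at an adjusted p under 0.05. CPM use TMM factors over the libraries of all regions. Intervals are 95%. The scripts were tested on simulated data with 200 changed genes. limma 3.58.1 (voom), DESeq2 1.42.0, other scaling and filters, a replicate block, and leaving out rats were alternatives.

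The receptors and gene lists were chosen with earlier results of these data known. The text names all 6 receptors, the 3 genes most like each over 30 group means, and per pathway list and region the 2 highest and 2 lowest log2 fold changes among genes that passed in the mean difference. Marker genes are named where they describe a region or library. Replicates are separate rats, and no 2 libraries of the same region, strain and age agreed within sampling noise (270 pairs). Other pairs were not compared. Equal replicate numbers were not taken to pair rats, since deviations of same-numbered rats correlated by over 0.1 in 32 of 54 pairs and not in all (range -0.333 to 0.554, median 0.15). Library names end in 1 or 2, whose meaning is not stated. All 10 wk libraries, 3 WKY rats at 8 wk and 1 SHR each at 12 and 24 wk end in 2. In CVLM, 2 libraries titled 8 wk carry an age label of 10 wk and were kept at 8 wk. Libraries were said to stand apart, after seeing the data, by Ttr or Tph2 over 100 CPM or by a low receptor count.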

Additional observations from a re-analysis of the deposited data

Results flagged for a closer look

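In 4 of 126 groups of 4 to 6 rats, the highest or lowest rat lay farther from the others than Dixon's 95% limit allows, where chance flags about 1 in 20 groups. Grm5 in NTS was 10.61 CPM in SHR replicate 3 at 24 wk and 7.289 to 8.386 CPM in the other SHRs of that age. Grm7 accounted for the rest. In NTS it was 31.7 CPM in SHR replicate 6 at 24 wk, the one SHR of that age whose library name ends in 2, against 19.06 to 22.93 CPM in the others. In NTS it was 32.41 CPM in WKY replicate 3 at 8 wk, against 24.02 to 25.12 CPM. In RVLM the same rat had 5.868 CPM, on 43 counts, against 16.06 to 19.7 CPM.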

How the results depend on the processing

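Of the counts of receptors called, 117 of 143 under another setting stayed within 1.5 times the reported count. These include counts of 0 that stayed 0, as for strain by age, so the share says little about the calls. The following counts did not stay, and the cause was not tested except where a setting drops libraries. For the mean strain difference, NTS went from 1 to 0 and RVLM from 2 to 0 at an adjusted p of at most 0.01 with 2-fold. RVLM also went to 0 with the replicate block or with only libraries whose names end in 1, and to 1 with no filter on low counts. CVLM went from 0 to 1 without the libraries that stood apart, a setting chosen after seeing the data, as was the one by name ending. For single ages, NTS went from 3 to 0 at the stricter threshold or with each age fitted alone, and to 1 with the name ending as a term, with ending 1 only or without the libraries that stood apart. RVLM went from 1 to 0 in all of these and with the replicate block. CVLM went from 0 to 1 with each age fitted alone (Grm2, 0.83, adjusted p = 0.0199) and with the replicate block (Grm2, 0.81, adjusted p = 0.0104). The NTS count stayed at 3 with the replicate block, but Grm3 at 12 wk was not among the calls (0.39, adjusted p = 0.152). For age within SHRs, NTS went from 1 to 0 with the name ending or no filter, and RVLM from 0 to 1 by DESeq2. For age within WKY rats, CVLM went from 1 to 0 with the name ending, no filter or without the 2 libraries of conflicting age, and RVLM from 0 to 1 by DESeq2.

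With each of 46 rats left out in turn, the mean difference called 1 to 1 receptor in NTS, 0 to 1 in CVLM and 1 to 3 in RVLM. The single-age count ran from 2 to 4 in NTS, 0 to 0 in CVLM and 0 to 2 in RVLM. The count for age within SHRs ran from 0 to 1 in NTS and RVLM, and within WKY rats from 0 to 2 in CVLM and 0 to 1 in RVLM. Comparisons of regions kept counts of 6, 3 and 5 when each of 8 drawn rats was left out. Grm3 stayed called for the mean difference in NTS under every setting run except the 2-fold threshold. In RVLM it was not called with the replicate block (0.26, adjusted p = 0.061) or ending 1 alone (0.23, adjusted p = 0.0705), and Grm8 in RVLM was not called with no filter (adjusted p = 0.0624), the replicate block (0.112) or ending 1 alone (0.208).

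Some mean differences that were not called turned direction. With ending 1 alone the mean difference was -0.02052 for Grm2 in CVLM, -0.204 for Grm4 in NTS and -0.04056 for Grm8 in NTS. With the name ending as a term it was -0.01497 for Grm2 in NTS and -0.01315 for Grm4 in RVLM. Grm4 in RVLM was also -0.001398 by DESeq2, -0.003471 with RLE factors and -0.03009 without the libraries that stood apart, and Grm7 in CVLM was -0.05656 with the replicate block. With 1 rat left out the ranges crossed 0 for Grm2 in CVLM (-0.008129 to 0.09802) and NTS (-0.02939 to 0.03771), Grm4 in RVLM (-0.04196 to 0.06843), Grm5 in CVLM (-0.01272 to 0.132), Grm7 in CVLM (-0.01368 to 0.08195) and Grm8 in NTS (-0.01017 to 0.03519). Grm2 in RVLM and Grm4 had the fewest counts, with medians of 14 and of 25.5 to 36.5 per library. The median standard error over genes was 0.086 to 0.102 log2 units for the mean difference and 0.178 to 0.236 at a single age. Equal replicate numbers were not taken to pair rats, and whether such rats share a source of variation was not settled. Among the calls lost under the block, the estimate of Grm3 in NTS at 12 wk was smaller (0.39 against 0.53). That of Grm3 in RVLM over the ages was not (0.26 against 0.24).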
